A study of Mus musculus with 6 samples.

Results

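Mast cells and basophils are granule-filled cells of allergic and antiparasite responses, and 10 genes that mark them were followed here in cultures of mouse CD4+ (helper) T cells. The 10 genes are Cma1, Cpa3, Ctsg, Tpsg1, Tph1, Mcpt8, Ms4a2, Fcer1a, Hdc and Gata2, out of 18193 genes named on the array. They were read by every probe set whose annotation gives exactly 1 gene symbol that is among the 10, which made 13 probe sets of 45037. All 13 passed the filter on dim probe sets, but Tpsg1 passed it through its Ro arrays alone. The genes were chosen because several of them differed between the RA and Ro arrays, so their RA and Ro values are given as a description, and no test between RA and Ro supports a statement about them.

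RNA came from CD4+ T cells of mouse spleen, peripheral lymph nodes and mesenteric lymph nodes, cultured in vitro. There were 3 groups of 2 arrays each, called Control, RA and Ro in the labels. By the title of the series RA stands for retinoic acid, a signalling molecule made from vitamin A, whereas the labels do not expand Ro. The labels name no strain, age or dose, nor how the CD4+ cells were purified. A culture protocol is given for Control replicate 2 alone: hIL-2, hTGF-b1, mIL-6, mIL-1b, mIL-23, mIL-21 and mTNF-a, with anti-mIL-4 and anti-mIFN-gamma, for 5 days. No label says whether the other 5 arrays share it. Whether the replicates came from separate cultures or animals is not stated, so p-values reflect only how far these samples differ, a spread that may be technical.

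Control replicate 2 stood apart from the other arrays. Its log2 signals correlated at 0.911 to 0.917 across probe sets with theirs, against 0.961 to 0.972 among the other 5, with array medians of 16.2 to 23.7 arbitrary units. T cell identity genes were bright throughout: the summed signal of the 11 measured genes of that list was 26089 to 31832 on 5 arrays and 19731 on Control replicate 2. Cd8a, which marks the other main T cell class, was at 4.29 to 23.2 on 5 arrays and at 236 on Control replicate 2. Cd8b1, for the other CD8 chain, was not raised there, at 85 against 54.6 to 164 on the other 5 arrays. Each comparison with Control is therefore given with and without that array.

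Mast cells mature in tissues under the growth factor receptor Kit and store chymases, tryptases and carboxypeptidase in their granules together with histamine. Basophils circulate, express the protease gene Mcpt8 in the mouse, and share with mast cells the high-affinity receptor for immunoglobulin E, histamine synthesis and the transcription factor Gata2. The genes thus divide by role. Cma1 (mast cell chymase), Cpa3 (carboxypeptidase A3), Ctsg (cathepsin G) and Tpsg1 (a membrane-anchored tryptase) were taken as the mast cell proteases. Cpa3 is also made by basophils and Ctsg by neutrophil precursors. Ms4a2 and Fcer1a (chains of the immunoglobulin E receptor), Hdc (histidine decarboxylase, which makes histamine) and Gata2 were taken as the genes shared by both cells. Mcpt8 (mast cell protease 8) marks mouse basophils, and Tph1 (tryptophan hydroxylase) starts the synthesis of serotonin, which rodent mast cells store.

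Promoters are shown for 2 of the mast cell proteases and for both receptor chains. These are the 250 bases before the start of each gene in RefSeq, build GRCm38.p6, all on the minus strand of the genome and written 5′ to 3′ along the gene. Cma1 lies at chr14:55944676-55944925, Cpa3 at chr3:20242182-20242431, Fcer1a at chr1:173227230-173227479 and Ms4a2 at chr19:11623720-11623969. Capitals mark GATAA, a core of the sites that GATA factors bind, on either strand (TTATC on the strand shown).
Cma1: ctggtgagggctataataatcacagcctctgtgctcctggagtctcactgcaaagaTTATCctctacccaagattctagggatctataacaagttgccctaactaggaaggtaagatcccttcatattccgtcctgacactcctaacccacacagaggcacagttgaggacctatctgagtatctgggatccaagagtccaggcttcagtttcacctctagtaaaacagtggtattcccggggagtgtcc
Cpa3: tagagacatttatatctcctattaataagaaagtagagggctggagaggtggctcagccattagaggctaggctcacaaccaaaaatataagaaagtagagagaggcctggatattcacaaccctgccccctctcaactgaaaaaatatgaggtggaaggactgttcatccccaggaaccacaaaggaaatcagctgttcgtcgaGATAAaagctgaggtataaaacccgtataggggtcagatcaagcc
Fcer1a: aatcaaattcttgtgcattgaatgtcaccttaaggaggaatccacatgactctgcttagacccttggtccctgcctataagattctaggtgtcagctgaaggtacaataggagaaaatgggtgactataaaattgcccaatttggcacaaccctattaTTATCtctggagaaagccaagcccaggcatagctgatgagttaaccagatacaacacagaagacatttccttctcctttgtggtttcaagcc
Ms4a2: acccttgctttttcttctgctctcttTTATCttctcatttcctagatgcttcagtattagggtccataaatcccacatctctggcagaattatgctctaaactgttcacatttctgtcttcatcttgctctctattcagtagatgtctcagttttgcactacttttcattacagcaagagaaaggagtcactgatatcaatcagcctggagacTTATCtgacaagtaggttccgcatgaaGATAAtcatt
The letters occur once each in Cma1, Cpa3 and Fcer1a and 3 times in Ms4a2. Among the 10 genes, 5 had them in at least 1 such window, the fifth being Tpsg1, against 22.6% of the 32851 windows of the same length in the table. Ctsg, Mcpt8, Hdc, Gata2 and Tph1, whose windows are not shown, had none. Tpsg1, Tph1 and Gata2 each had 2 windows. The counts by gene are therefore not on the same measure as the shares of windows, for this motif and those below. CANNTG, the E-box core, occurred for 7 of 10 genes against 66.2% of all windows, and AGGTCA, a core of the sites that retinoic acid receptors bind, for 1 of 10 (Tph1) against 14% of all windows, both strands being searched for each. A match is a string of letters, not a site shown to be bound.

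Of the mast cell proteases, Cma1 separated the groups most widely. Its signal was 492 and 518 on the Ro arrays, 33.9 and 43.9 on the RA arrays, 75.9 on Control replicate 1 and 3.30 on Control replicate 2. Both Ro arrays were high and both RA arrays lay below Control replicate 1. The mean was 505 ± 18.7 (SD, n = 2) in Ro and 38.9 ± 7.05 (SD, n = 2) in RA, a ratio of 13.0. In a fit of all 6 arrays with limma, on log2(signal + 2.999) and relative to the median probe set, the RA minus Ro difference was -3.40 (SE 1.03). Fitted on the 4 RA and Ro arrays alone it was -3.39 (SE 0.29).

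Cpa3 was bright on every array but 1. It stood at 1711 and 1410 in Ro, 370 and 382 in RA, 914 on Control replicate 1 and 15.6 on Control replicate 2. The RA arrays agreed closely with each other, and the Ro mean of 1561 ± 213 (SD, n = 2) was 4.15 times the RA mean of 376 ± 8.72 (SD, n = 2). Ctsg showed the same order at dimmer signals, with 168 and 145 in Ro, 35.8 and 34.2 in RA, and 89.4 and 8.87 on Control replicates 1 and 2. Its Ro mean was 4.47 times its RA mean. For both genes the groups RA and Ro did not overlap, and Control replicate 1 lay between them.

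Tpsg1 was dim. Its signals were 37.2 and 24.4 in Ro, 4.58 and 2.65 in RA and 7.04 and 6.42 in Control, where MAS5 values are noisy. The Ro arrays were the high ones, but the size of the difference is uncertain: on the log2 scale it was -2.13 at the pseudocount of 2.999 and -0.94 with a pseudocount of 19.83, the median signal. Control replicate 2 was not low for this gene.

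Tph1 followed Cma1. Its signals were 201 and 235 in Ro, 9.17 and 15.6 in RA, 37.5 on Control replicate 1 and 6.47 on Control replicate 2, so Ro was high and the rest dim. The Ro mean of 218 ± 23.9 (SD, n = 2) was 17.6 times the RA mean, a ratio made large by dim RA signals, and the log2 difference was -3.66 (SE 0.69).

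**Figure D1:**
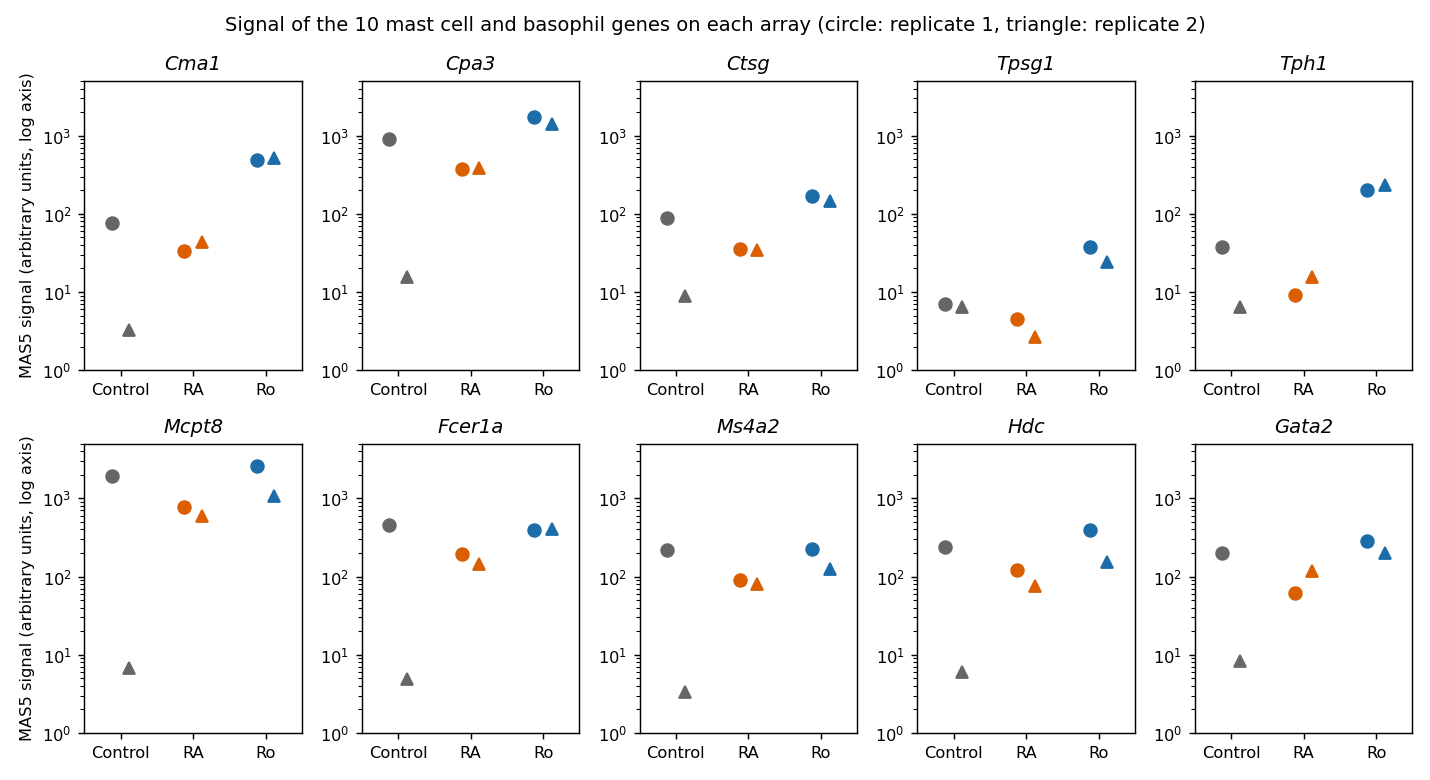
Signal of each of the 10 genes on the 6 arrays, on a log axis in arbitrary units, with circles for replicate 1 and triangles for replicate 2 of the groups Control, RA and Ro. Cma1 stands at 492 and 518 in Ro against 33.9 and 43.9 in RA, and Control replicate 2 is the lowest array for 9 of the 10 genes, Tpsg1 being the exception.

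Mcpt8, the basophil protease gene, had signals of 2599 and 1070 in Ro, 766 and 594 in RA, 1955 on Control replicate 1 and 6.72 on Control replicate 2. The Ro arrays differed from each other by more than Ro replicate 2 differed from the RA arrays. The Ro mean of 1834 ± 1081 (SD, n = 2) was 2.70 times the RA mean of 680 ± 121 (SD, n = 2). The log2 difference of -1.09 (SE 2.07) became -0.37 without Ro replicate 1 and -1.77 without Ro replicate 2.

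Fcer1a, the alpha chain that binds immunoglobulin E, stood at 397 and 410 in Ro, 194 and 146 in RA, 454 on Control replicate 1 and 4.87 on Control replicate 2. Here both Ro arrays lay just below Control replicate 1, and the Ro mean was 2.37 times the RA mean. Ms4a2, the beta chain of the same receptor, was read by 2 probe sets that differ. The brighter gave 224 and 126 in Ro, 89.4 and 80.5 in RA, and 216 and 3.32 in Control. The dimmer gave 53.4 and 25.9 in Ro and 40.1 and 28.6 in RA. With the brighter probe set the groups did not overlap (log2 difference -0.75, SE 1.41, and -0.26 without Ro replicate 1), and with the dimmer they did (0.08, SE 1.17).

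Hdc gave 396 and 153 in Ro, 123 and 76.1 in RA, 242 on Control replicate 1 and 6.01 on Control replicate 2 with its representative probe set. Its other probe set gave 482 and 146 in Ro and 137 and 68.5 in RA, the same order. Both Hdc probe sets carry the mark of sets that can match more than 1 transcript. Gata2 stood at 282 and 202 in Ro, 61.3 and 119 in RA, 202 on Control replicate 1 and 8.25 on Control replicate 2. Its second probe set gave the same order of groups. For both genes the replicates spread widely, with Ro means 2.76 and 2.68 times the RA means.

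The mast cell proteases differed more between RA and Ro than the shared genes did. The RA mean was 7.70% to 24.1% of the Ro mean for the 4 proteases (median 17.1%, or 22.4% without Tpsg1, whose place above the filter required high Ro signals), and 36.2% to 48.6% for the 4 shared genes (median 39.8%), so the ranges did not overlap. Mcpt8, at 37.1%, lay with the shared genes, and Tph1, at 5.70%, beyond the proteases. Over the 8877 tested genes with a signal of at least 50 on Control replicate 1, the median was 82.2%. On the log2 scale the median difference was -1.99 for the proteases and -1.07 for the shared genes, against -0.03 for all tested genes. The difference between these medians was -0.92, and -0.78 without Tpsg1. With both sets chosen from RA and Ro values, no test of this difference is given. The gap between single genes depended on the Ro array used. Without Ro replicate 2, Cpa3 (-2.01) and Ctsg lay only just beyond Hdc (-1.83) and Mcpt8 (-1.77), and the difference between the medians was -0.65. Without Ro replicate 1 the gap was wider, with Cpa3 at -1.61 and Fcer1a, the nearest shared gene, at -0.98. Tpsg1 was not tested in either fit.

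**Figure D2:**
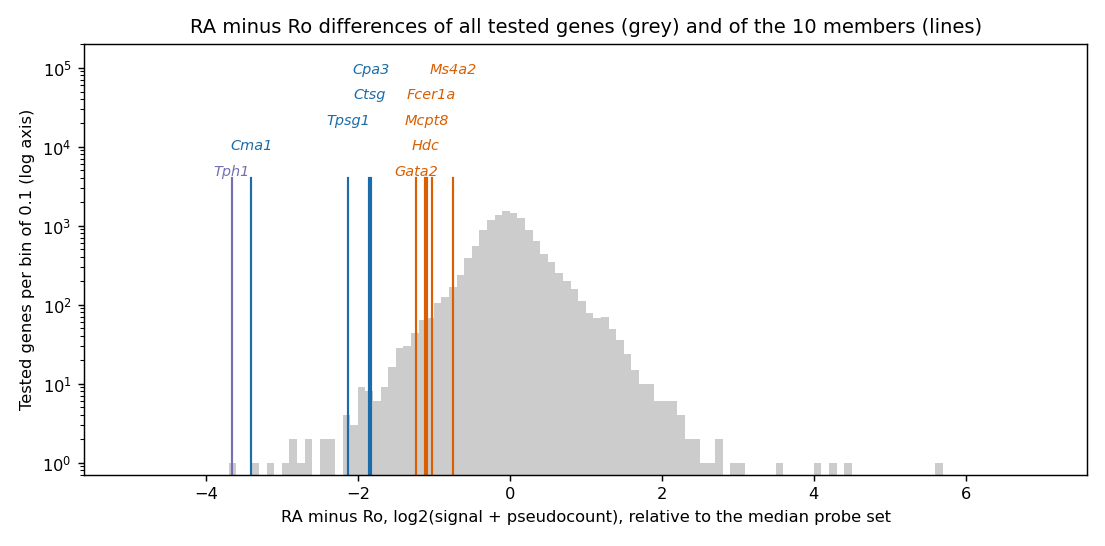
Histogram of the RA minus Ro log2 differences of the 12986 tested genes, relative to the median probe set, with genes per bin on a log axis and a line for each of the 10 genes. Tph1 (-3.66) and Cma1 (-3.40) lie at the far left, the other 3 mast cell proteases (blue) near -2, and Mcpt8 and the shared genes (orange) between -1.23 and -0.75.

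Both RA arrays lay below both Ro arrays for 10 of the 10 genes, which holds for 37.7% of all tested genes, and with a ratio of at least 2 in mean signal for 10 of 10 against 4.48%. These counts follow from how the genes were chosen. In the limma fit of all 6 arrays 0 of the 13 probe sets passed an adjusted p of 0.05, as did 0% of all tested (0 of 29507, though 496 had an unadjusted p under 0.05). Nothing is read from this count either. Fewer cells of a type and less RNA per cell cannot be told apart in RNA from whole cultures, here or in what follows.

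Set against Control replicate 1, the genes stood at a similar proportion in RA and parted in Ro. Tpsg1, at 7.04 on Control replicate 1, is too dim there for a ratio. The RA mean was between 33.0% and 51.2% of Control replicate 1 for the other 9 genes, with medians of 41.1% for Cma1, Cpa3 and Ctsg and 40.2% for the shared genes. Over the 8877 genes, all at 50 or more there as these were except Tph1 (37.5), the median was 91.5% and the 5th to 95th percentiles ran from 64.7% to 131%. Both RA arrays lay below Control replicate 1 for 10 of 10 genes, which holds for 46.2% of all tested genes, and the RA mean was at most 50% of it for 8 of 10, against 4.77%. In Ro, by contrast, 3 proteases stood above Control replicate 1, at 6.65 times its signal for Cma1, 1.75 for Ctsg and 1.71 for Cpa3, and Tph1 at 5.80 times. The shared genes stood at 80.9% (Ms4a2), 88.7% (Fcer1a), 114% (Hdc) and 120% (Gata2), and Mcpt8 at 93.8%. Over the 8877 genes the median was 112% and the 5th to 95th percentiles ran from 72.4% to 164%. Ctsg and Cpa3 thus lay only just above that range, and Cma1 and Tph1 far above it. By these probe sets the shared genes and Mcpt8 lay within it. Both Ro arrays lay above both Control arrays for 6 of the 10 genes (the proteases, Tph1 and, barely, Gata2), as for 30.7% of all tested genes. Tpsg1 is in this count because of the filter, which it passed through its Ro arrays alone. By its second probe set Gata2 stood at 92.8% of Control replicate 1 in Ro, with Ro replicate 2 at 75.7 against 140 on that array. Ms4a2 stood at 48.1% by its dimmer probe set. These ratios rest on a single Control array and use the RA and Ro arrays by which the genes were chosen.

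**Figure D3:**
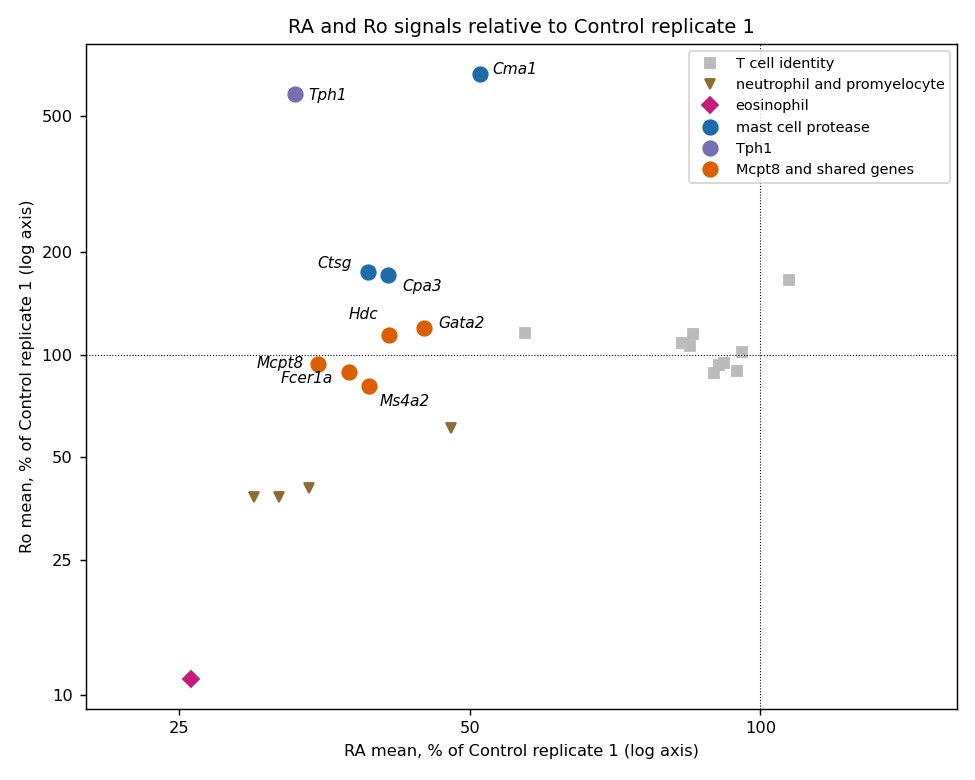
Mean RA signal (horizontal) and mean Ro signal (vertical) as a percentage of Control replicate 1, both on log axes, for the 10 genes without Tpsg1 and for T cell, neutrophil and eosinophil markers at 50 or more on that array. The 9 genes lie between 33.0% and 51.2% on the RA axis, while on the Ro axis they spread from 80.9% (Ms4a2) to 665% (Cma1).

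The Control replicate 2 array had almost none of these signals, and was the lowest of the 6 for 9 of the 10 genes, as for 50.7% of all tested genes. It stood under 10% of Control replicate 1 for 8 of the 10 genes, against 2.94% of all tested genes, with Mcpt8 at 0.344% and Fcer1a at 1.07%. Tph1 (17.2%) and Tpsg1 (91.2%), both dim on Control replicate 1, were the 2 others. Leaving it out turned the sign of RA minus Control for 8 of the 10 genes and of Ro minus Control for 4 of them (Mcpt8, Fcer1a, Ms4a2 and Hdc). Fcer1a gave a Ro minus Control log2 difference of 2.47 (SE 1.59) with both, -0.22 without Control replicate 2 and 5.14 without Control replicate 1. Cma1 was higher in Ro with either, at 4.22 (SE 1.03) with both, 2.64 (SE 0.36) without Control replicate 2 and 5.79 (SE 0.37) without Control replicate 1. For RA minus Control, Cpa3 gave 1.45 (SE 1.52) with both, -1.08 without Control replicate 2 and 3.99 without Control replicate 1.

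In limma, 0 of the 13 probe sets and 0% of all tested passed an adjusted p of 0.05 for Ro minus Control, where 1201 of 29507 had an unadjusted p under 0.05, and likewise for RA minus Control, where 535 did. For Ro minus Control the adjusted p of Cma1 in limma was 0.661, and it was 0.351 without Control replicate 2. Without Control replicate 1, 12 of 13 passed for Ro minus Control (24.9% of all passed) and 11 of 13 for RA minus Control (15.1% of all), a fit that takes the single Control array to vary as RA and Ro do. These comparisons share the RA and Ro arrays with each other and with the one that chose the genes.

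The replicate arrays of Ro did not rank the genes alike. Ro replicate 2 as a percentage of Ro replicate 1 was 105% for Cma1, 117% for Tph1, 103% for Fcer1a, 86.7% for Ctsg and 82.4% for Cpa3. It was 38.7% for Hdc, 41.2% for Mcpt8 and 56.1% for Ms4a2, with Gata2 (71.6%) and Tpsg1 (65.6%) between. Over the 8877 genes the median was 109% and the 5th to 95th percentiles were 43.6% to 181%, so Hdc and Mcpt8 lay beyond that range. Some neutrophil genes were likewise lower on Ro replicate 2, S100a8 at 28.8 against 194 and S100a9 at 17.6 against 167. Of the dimmer ones, Mpo was not, at 30.2 against 25.2, and Prtn3 was nearly level, at 15.7 against 15.8. The platelet gene Pf4 was higher on Ro replicate 2, at 1080 against 200. The part of these genes in the result was not tested.

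Other mast cell proteases were dim or near background. Tpsb2, a granule tryptase, had 48.8 and 35.3 in Ro, 1.93 and 2.42 in RA and 23.1 and 3.09 in Control, so that Ro was high as for Cma1 while both RA arrays lay below Control replicate 2. Mcpt4, the chymase of connective tissue mast cells, lay between 0.300 and 3.04 on all 6 arrays. Mcpt1 and Mcpt2, the mucosal chymases, were at most 10.3 on the RA and Ro arrays and on Control replicate 1, and 24.9 and 31.4 on Control replicate 2. Of the 5 measured genes of this list only Tpsb2 passed the filter. Cma1, Mcpt8 and Ctsg lie in 1 gene cluster on chromosome 14, with Mcpt1, Mcpt2 and Mcpt4 between Cma1 and Mcpt8 in the RefSeq gene table, and none of these 3 neighbours passed the filter. Cma2, Mcpt9 and Prss34 were not analysed here.

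Among 16 other mast cell genes, 11 were tested and 8 lay below the median gene in RA minus Ro. By limma 0 were called in the 3 comparisons, as were 0% of all tested probe sets. Nothing is read from such counts, here or for the lists below. The list median was -0.35, against -0.03 over all tested genes. Kit, the receptor for stem cell factor, had 94.5 and 104 in Ro, 25.1 and 42.8 in RA, 34.1 on Control replicate 1 and 120 on Control replicate 2. It was thus high on the Control array where the granule genes were nearly absent. Cyp11a1, a steroid-synthesising enzyme also made by T helper cells, had 450 and 271 in Ro, 154 and 124 in RA, and 426 and 195 in Control. Ndst2, a heparin-modifying enzyme, had 192 and 239 in Ro and 98.5 and 181 in RA. Mitf (0.03), Srgn (0.11) and Hpgds (0.31) lay above the median gene in RA minus Ro.

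Other basophil genes did not share 1 order. Of 8 tested, 4 lay below the median gene in RA minus Ro, with a list median of -0.40. In the 3 comparisons limma called 0 of them, and 0% of all tested probe sets. Csf2rb2 and Csf2rb, the beta chains of the interleukin 3 and related receptors, had 1040 and 496, and 1124 and 569, in Ro, against 181 and 234, and 303 and 339, in RA. On Control replicate 1 they stood at 558 and 723, and on Control replicate 2 at 5.29 and 8.39, much as Mcpt8 did. Il18rap, a chain of the interleukin 18 receptor that T and NK cells also carry, had 355 and 127 in Ro and 82.8 and 96.4 in RA. Cd200r3, an activating receptor of basophils and mast cells, had 51.9 and 30.0 in Ro, 50.9 and 37.3 in RA, 103 on Control replicate 1 and 0.192 on Control replicate 2. Its RA and Ro arrays overlapped, unlike those of Fcer1a.

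Genes that carry the signal of the immunoglobulin E receptor include many that T cells use too. Of 12 tested, 9 lay below the median gene in RA minus Ro, with a list median of -0.43. In the 3 comparisons limma called 0 of them, and 0% of all tested probe sets. Fcer1g, the gamma chain shared by several Fc receptors, had 501 and 179 in Ro, 145 and 145 in RA, 371 on Control replicate 1 and 6.78 on Control replicate 2, close to the order of Mcpt8. Lat2, an adaptor of myeloid and B cells, had 206 and 85.3 in Ro against 73.4 and 54.6 in RA. Syk, the kinase that docks on the gamma chain, had 68.9 and 64.8 in Ro and 20.8 and 36.4 in RA.

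Markers of other cells were compared with the members on the same arrays. Of the neutrophil list, 8 of 9 measured genes were tested, 3 of which lay below the median gene in RA minus Ro, and their summed signal was 930 and 95.2 in Control, 627 and 179 in Ro and 381 and 294 in RA. The 4 of them at 50 or more on Control replicate 1 stood at 29.9% to 47.8% of that array in RA and at 38.2% to 60.7% in Ro. RA thus had a share of Control replicate 1 close in value to that of the members, but the RA and Ro arrays of this list overlapped. For the eosinophil list, with 3 of 4 measured genes tested, the sums were 286 and 33.8 in Control, 99.7 and 79.6 in RA and 42.6 and 56.3 in Ro. Prg2, the granule major basic protein, was lower in Ro than in RA, at 24.6 and 24.2 against 50.2 and 62.0, with 218 on Control replicate 1. The part of these cells in the members' values was not tested.

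The monocyte, macrophage and dendritic cell list had 10 of 10 measured genes tested and sums of 2175 and 1024 in Control, 832 and 909 in RA and 2030 and 1237 in Ro. Without overlap, 2 of the 10 genes were lower in RA than in Ro and 1 was higher, against 37.7% of all tested genes lower, and the list median was -0.18. The sums were made up largely of Cd74, the invariant chain of antigen presentation, at 934 and 780 in Ro against 278 and 369 in RA, and of Lyz2, a lysozyme, at 622 and 161 in Ro against 291 and 232 in RA. The platelet list (5 of 5 tested) had sums of 2670 and 60.6 in Control, 1799 and 3182 in RA and 2738 and 5100 in Ro, and the B cell list (5 of 5 tested) 79.8 and 112, 86.3 and 113, and 69.4 and 130. NK cell genes (3 of 4 tested) had 395 and 2717 in Control, 1327 and 793 in Ro and 318 and 583 in RA. The RA minus Ro list median was -1.18 for the NK cell list, -0.93 for the platelet list and 0.25 for the B cell list. For the shared mast cell and basophil genes it was -1.07. Every tested NK cell and platelet gene lay below the median gene. The 10 T cell genes at 50 or more on Control replicate 1 had a median of 90.0% of that array in RA and 104% in Ro. The RA minus Ro list median, over the 11 tested, was -0.09.

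**Figure D4:**
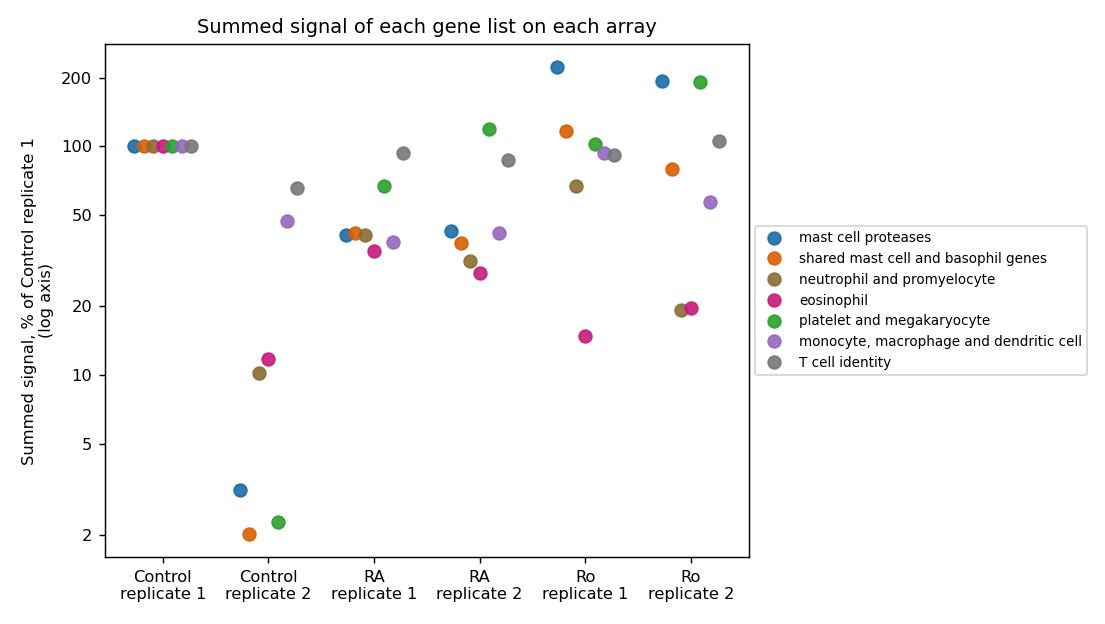
Summed signal of 7 gene lists on each array as a percentage of Control replicate 1, on a log axis. In Ro the mast cell proteases (2408 and 2098 against 1086 on Control replicate 1) lie above 100%, while the neutrophil (627 and 179 against 930) and eosinophil (42.6 and 56.3 against 286) lists lie below it. Most of the protease sum is Cpa3, at 1711 and 1410 in Ro and 914 on Control replicate 1. The platelet list also lies above 100% in Ro (2738 and 5100 against 2670).

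Cytokines that feed mast cells and basophils were mostly dim outside Control replicate 2. On that array Il9 was at 252, Il10 at 612 and Il13 at 73.1. Their highest signals on the other 5 arrays were 13.1, 11.3 and 20.5. Il6 and Tgfb1 were instead lowest on Control replicate 2, at 1.83 and 810. Of 11 measured genes 7 were tested, 4 of which lay below the median gene in RA minus Ro, with a list median of -0.34. In the 3 comparisons limma called 0 of them, and 0% of all tested probe sets. Il3, the main basophil growth factor, was at most 3.86 on 5 arrays and 46.2 on Control replicate 2. Il6, which mast cells and basophils can secrete, had 253 and 97.5 in Ro, 77.2 and 63.5 in RA, 160 on Control replicate 1 and 1.83 on Control replicate 2, an order like that of Mcpt8. Csf2 had 17.5 and 42.9 in Ro, 45.4 and 43.7 in RA, and 38.5 and 481 in Control. Tgfb1 had 1518 and 1642 in Ro, against 953 and 1205 in RA.

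Of the serotonin and histamine handling genes other than Tph1 and Hdc, 5 of 10 were tested, 4 of which lay below the median gene in RA minus Ro. Hrh2, a histamine receptor, had 100 and 140 in Ro and 70.2 and 88.7 in RA, and the other 9 genes were under 50 on every array. Of these dim genes Maob had 27.5 and 24.3 in Ro and 2.63 and 1.21 in RA. Ddc went the other way, with 26.9 and 17.1 in Ro and 34.1 and 36 in RA. Of the GATA factors and partners 8 of 10 lay below the median gene in RA minus Ro, with a list median of -0.38. In the 3 comparisons limma called 0 of them, and 0% of all tested probe sets. Tal1, a partner of GATA factors in blood progenitors, had 88.7 and 101 in Ro, a mean of 31.8 ± 11.7 (SD, n = 2) in RA, 71.0 on Control replicate 1 and 5.25 on Control replicate 2, with both Ro arrays highest and Control replicate 2 lowest, as for Cma1. Stat5a had 530 and 681 in Ro and 209 and 428 in RA, and Runx1 went the other way in value, with 247 and 204 in Ro against 395 and 235 in RA.

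Genes with the pattern most like each of 3 members were sought over the 6 arrays by Pearson correlation of log2 signals, among 2853 genes spanning at least 2 on that scale. The low values of Control replicate 2 weigh heavily in these correlations, and 45 genes reached 0.95 for Cma1, 323 for Mcpt8 and 412 for Cpa3. Nearest to Cma1 were Nacc2 (0.9978), Lgmn (0.9890), Prkar2b (0.9847), Scin (0.9846) and B3gnt5 (0.9794). Nacc2, a transcriptional repressor, had 566 and 552 in Ro, 47.3 and 78.0 in RA and 120 and 8.51 in Control. Nearest to Mcpt8 were Gypc (0.9997), Akr1c12 (0.9988), Tyrobp (0.9982), Csf2rb (0.9964) and Arap3 (0.9960). Tyrobp, a signalling adaptor of myeloid and NK cells, had 827 and 358 in Ro, 327 and 262 in RA and 814 and 4.68 in Control. Nearest to Cpa3 were Ssbp3 (0.9986), Oas1b (0.9963), Cd200r4 (0.9956), Tsc22d3 (0.9954) and BC147527 (0.9940).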

How the data were processed

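The authors deposited 1 linear intensity per probe set and array, in arbitrary units. MAS5 made these values, per the submitters' processing notes, with version and scaling target not stated there. Samples were grouped by title, RO and Ro being taken as 1 group. The 64 control probe sets were left out. Gene symbols came from the platform annotation in GEO (34945 probe sets with 1 symbol, 932 with several, 9160 with none), and a check through Entrez IDs changed 0 symbols. A probe set was tested if its signal passed the array's 40th percentile on 2 or more arrays (29507 probe sets, 12986 genes). limma 3.58.1 in R 4.3.3 (lmFit and eBayes with an intensity trend, 3 residual degrees of freedom, two-sided, Benjamini-Hochberg over all tested, threshold 0.05) was run on log2(signal + 2.999), the pseudocount being the 20th percentile of all values, and tested on simulated data. The simulated arrays took their spread from the RA and Ro arrays and included none that stood apart as Control replicate 2 did. They therefore do not show how the fit behaves with that array. Log2 differences are relative to the median probe set, which lay at -0.21 (RA minus Ro), 0.29 (Ro minus Control) and 0.09 (RA minus Control). Signals and their ratios are not so corrected. Where a gene had several tested probe sets, the brightest by mean log2 signal stands for it, sets marked _s_ or _x_ being left out where another existed. Sequences are from RefSeq tables of GRCm38.p6, in which 10 of 10 genes matched. Named genes were the 10 members, up to 3 tested genes of each other list with the largest RA minus Ro difference among those with a group mean of at least 50, the markers Kit, Mcpt4, Tpsb2, Cd200r3, Prss34 and Fcer1g, the 5 genes most like Cma1, Mcpt8 and Cpa3, and neighbours in the chymase cluster. Il3, Il9, Il10, Il13, Lyz2, Mpo, Prtn3, the Ro replicate ratios and the ratios to Control replicate 1 were chosen after values were seen. So were Mitf, Srgn, Hpgds, Maob and Ddc. Members and lists were chosen with earlier results of these data known. Alternatives were other pseudocounts, scalings and filters, no trend, the replicate number as a block, the compared groups alone, other members or probe sets, and leaving out each array.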

Additional observations from a re-analysis of the deposited data

How the results depend on the processing

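The number of arrays, 2 in each group, limits every value, and dim MAS5 signals limit Tpsg1, Tph1 and Tpsb2. The 10 genes kept a lower value in RA than in Ro under the other pseudocounts and scalings, with the mean of a gene's probe sets and without each array, except that Tpsg1 was not tested without a Ro array. RA minus Control turned in sign for 8 of 10 genes and Ro minus Control for 4 of 10 without Control replicate 2. The difference between proteases and shared genes ran from -1.16 (pseudocount 1) to -0.66 (pseudocount at the median signal) over the settings, was -1.06 without Ctsg, -0.78 without Tpsg1 (chosen after seeing the data) and -0.78 with Mcpt8 added, and ran from -1.09 to -0.65 without each array in turn. Calls by limma over all probe sets were 0 with all 6 arrays in the 3 comparisons. Leaving out each array gave 0 to 12 for RA minus Ro (12 without either Control array), 0 to 7211 (Ro minus Control) and 0 to 4372 (RA minus Control), the highest of both without Control replicate 1. The 2 groups compared alone gave 12 for RA minus Ro. The replicate numbers do not pair the samples by any label: replicate differences correlated across probe sets at 0.249 between RA and Ro, 0.00477 between Control and RA and -0.0290 between Control and Ro. With the number as a replicate block, calls were 0 on all 6 arrays and, in fits of the 2 groups compared, 106 for RA minus Ro, 93 (Ro minus Control) and 56 (RA minus Control); the cause was not tested.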
